A study of Mus musculus with 6 samples.

Results

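The barrier lipid and ceramide genes are 34 genes that make, modify, load and break down the ceramides and very long chain fatty acids of the skin barrier, chosen by name from a table of 30349 genes in 6 libraries of mouse keratinocytes. All 34 are listed in that table, and 31 of them had a mean of at least 1 CPM (counts per 1000000 reads of a library) over the 6 libraries and were tested among 11716 genes. The cells were primary epidermal keratinocytes taken at postnatal day 2. Wild type replicates 13, 14 and 15 formed 1 group and replicates 9, 10 and 11 of the genotype p63 alphaKO the other, 3 libraries each. Both groups shared the same medium, low in calcium (0.05 mM), with EGF at 2.5 ng/mL and chelated serum at 4%, for 5 to 6 days. RNA was sequenced by 3' digital gene expression, which reads the ends of transcripts, so a value is a level per gene and does not tell isoforms apart. The sources used here do not name the strain, the part of Trp63 that p63 alphaKO lacks, or whether libraries of a group came from separate animals, so p-values measure the spread between these libraries alone.

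The outer layer of the epidermis holds water by lipid sheets made largely of ceramides, cholesterol and free fatty acids. Keratinocytes build an unusual acylceramide from a very long fatty acid, which is hydroxylated at its far end and joined to linoleic acid, and store it as a glucosylated form in lamellar granules. Lipoxygenases then oxidise the linoleic acid so that the lipid can be attached to the protein envelope of the cornified cell. Most of these enzymes belong to the upper, differentiating layers, and keratinocytes held at low calcium are kept from full stratification. The transcription factor p63, encoded by Trp63, is needed to form stratified epithelia. The comparison asks how cells labelled p63 alphaKO differ from wild type cells in these genes.

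The libraries held 1699716 reads (p63 alphaKO replicate 11) to 3215333 reads (wild type replicate 14), and a gene listed at 0 may have up to 0.933 to 1.76 CPM in a library, the level of 3 reads. Trp63 itself was at 38.0, 53.2 and 48.9 CPM in the wild type (replicates 13, 14 and 15) against 49.8, 59.3 and 57.0 CPM in p63 alphaKO replicates 9, 10 and 11 (a log2 fold change of 0.25, SE 0.26, limma adjusted p = 0.926). A value per gene does not check this genotype. The basal keratins Krt5 and Krt14 were at 8471 to 11423 and 10394 to 15124 CPM. Markers of other cells varied by library: 7 melanocyte genes summed to 303.0 to 811.0 CPM in wild type against 230.4 to 1014 CPM in p63 alphaKO, lowest in wild type replicate 15 and in p63 alphaKO replicate 11. The 7 muscle genes summed to 69.8 to 645.5 CPM in wild type, highest in replicate 15, and 17.4 to 65.2 CPM in p63 alphaKO, with Myh3 at 0 in all libraries. For 7 fibroblast genes the sums were 16.8 to 43.4 and 5.88 to 41.3 CPM, with Lum at 0 in all libraries, and for 7 sebaceous gland genes they were 24.5 to 39.0 and 20.1 to 40.3 CPM, with Awat1 at 0. The part of these cells in the results that follow was not tested.

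No barrier lipid gene passed the threshold, an adjusted p under 0.05 over all genes tested (limma adjusted p 0.758 to 0.998 for the 31 members). That threshold called 0.0427% of all genes tested (0.0341% higher and 0.00854% lower in p63 alphaKO). At an unadjusted p under 0.05 there was 1 member, Alox12b, which was lower in p63 alphaKO. This looser rule called 6.36% of all genes, 3.01% higher and 3.35% lower. edgeR and DESeq2, run on reads recovered from the CPM, called none of the 31 either. Of the members, 19 were lower and 12 higher in p63 alphaKO, with a median log2 fold change of -0.09, where 49.3% of all genes tested were lower and their median was 0.01. By limma on log2(CPM + 1), the largest differences in either direction were -0.91 for Alox12b and 0.62 for Asah1. These data set limits on the size of any change: the 95% intervals of 21 members lay within 2-fold in both directions, 8 reached beyond 2-fold lower and 2 beyond 2-fold higher. In bulk RNA, fewer cells of a type and less RNA per cell cannot be told apart.

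**Figure D1:**
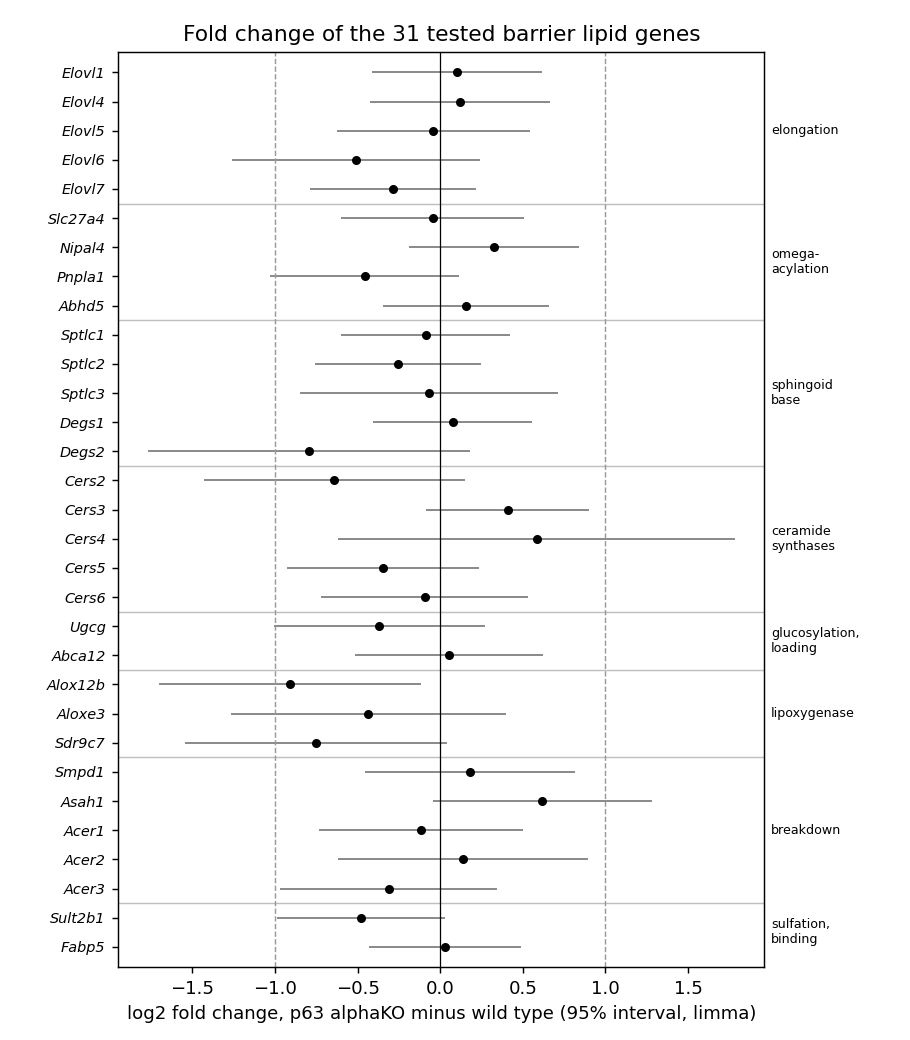
Log2 fold change of each tested gene (p63 alphaKO minus wild type on log2(CPM + 1), n = 3 libraries per group), with the 95% interval from limma as a bar and dashed lines at 2-fold. All 31 points lie between -0.91 and 0.62, and the interval of Alox12b is the 1 that does not reach 0.

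**Figure D2:**
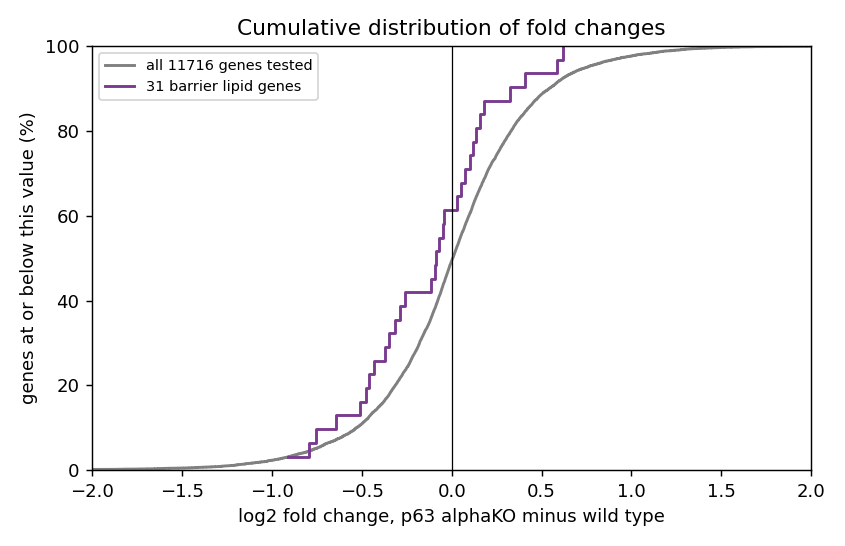
Share of genes (percent) at or below each log2 fold change, for the 31 barrier lipid genes and for all 11716 genes tested. The curve of the barrier lipid genes crosses 0 at 61.3%, and that of all genes at 49.3%.

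The groups did not overlap for 7 members, 22.6% of those tested, against 11.5% of all genes tested. Lower in every p63 alphaKO library than in any wild type library were Elovl7, Sptlc2, Alox12b and Sult2b1, a direction that 5.09% of all genes had. Higher in every p63 alphaKO library were Nipal4, Cers3 and Asah1, as were 6.45% of all genes. With 3 libraries per group, none of the 7 passed the threshold over all genes.

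The lipoxygenase branch had the lowest median log2 fold change of the 8 roles, -0.75 over 3 genes, none of which passed the threshold. Alox12b encodes the lipoxygenase that oxidises the linoleic acid of acylceramide, Aloxe3 the enzyme that converts its product to an epoxy alcohol, and Sdr9c7 the dehydrogenase that acts after it. Loss of any of them causes ichthyosis, a scaling skin disorder. Alox12b stood at 21.37, 17.10 and 18.74 CPM in the wild type (replicates 13, 14 and 15) against 7.31, 17.00 and 7.05 CPM in p63 alphaKO replicates 9, 10 and 11. The groups were apart by the gap between 17.10 and 17.00 CPM alone, since p63 alphaKO replicate 10 lay beside wild type replicate 14 and the other p63 alphaKO libraries far below. The means were 19.1 ± 2.15 and 10.45 ± 5.67 CPM (SD, n = 3 per group), a log2 fold change of -0.91 (SE 0.38, 95% interval -1.70 to -0.12, limma unadjusted p = 0.0266, adjusted p = 0.758). Sdr9c7 was at 18.54, 22.38 and 33.35 CPM in wild type against 9.13, 24.33 and 11.76 CPM in p63 alphaKO, in the same order of replicates (-0.75, SE 0.38, adjusted p = 0.794). Aloxe3 was at 21.37, 15.54 and 20.65 CPM in wild type against 11.42, 27.33 and 8.23 CPM in p63 alphaKO (-0.43, SE 0.39, adjusted p = 0.924). For both genes p63 alphaKO replicates 9 and 11 were below every wild type library while replicate 10 was not, and for Aloxe3 replicate 10 was the highest of all. Without replicate 10 the log2 fold changes were -1.29 for Alox12b, -1.14 for Sdr9c7 and -0.90 for Aloxe3, none past the threshold (limma adjusted p 0.440, 0.462 and 0.636). Sdr9c7 was at -0.48 without replicate 9, and Aloxe3 at -0.09 without replicate 11. Alox12b was at -0.73 without replicate 9 and -0.71 without replicate 11, with limma unadjusted p of 0.0986 and 0.0812. That p was 0.0818 without wild type replicate 13 and 0.0523 without wild type replicate 15. It was smaller without wild type replicate 14 (0.0417) or p63 alphaKO replicate 10 (0.0037). With all libraries the unadjusted p of Alox12b was 0.0414 by edgeR and 0.0578 by DESeq2. Alox12e, a further mouse lipoxygenase of the epidermis, had no read in any library.

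Aloxe3 and Alox12b are neighbours. In the GENCODE vM21 annotation of GRCm38 they lie on the plus strand of chromosome 11, Aloxe3 at 69125896 to 69149115 and Alox12b at 69156989 to 69169792, with 7873 bases and no annotated gene between them. Alox12e lies 1145817 bases further along the same chromosome (70315610 to 70322628, minus strand). Sdr9c7 is on chromosome 10 (127898518 to 127911761, plus strand).

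RefSeq promoter windows on GRCm38.p6 (250 bases before to 50 after a start) were found for 30 of the 34 members, 34 windows in all. Their median GC content was 62.7%, against 52.7% over 32851 windows. Windows were searched on both strands for TGANTCA (the AP-1 element), AGGTCA (a nuclear receptor element), the p53 family core pair, CACGTG (an E-box) and TATAAA (the TATA box). The shares of member windows with these letters were 5.88%, 17.6%, 0%, 14.7% and 2.94%, and of all windows 7.81%, 16.3%, 0.712%, 7.15% and 13.6%. A match describes the letters and is no evidence of binding. The 250 bases before a start are printed 5′ to 3′ for Alox12b, the member with the smallest p, for Sdr9c7 of the same branch, and for Sult2b1 and Cers3, whose groups did not overlap in opposite directions, with the searched letters in capitals. They are chr11:69156822-69157071 (plus strand), chr10:127898285-127898534 (plus), chr7:45742479-45742728 (minus, the more downstream of its 2 windows) and chr7:66743254-66743503 (plus). Sdr9c7 holds TATAAA, Sult2b1 TGAGTCA and Cers3 AGGTCA, which begin 42, 151 and 122 bases before the start, and Alox12b holds none of the letters searched. The other Sult2b1 window, chr7:45759563-45759862, holds none of them either.
Alox12b: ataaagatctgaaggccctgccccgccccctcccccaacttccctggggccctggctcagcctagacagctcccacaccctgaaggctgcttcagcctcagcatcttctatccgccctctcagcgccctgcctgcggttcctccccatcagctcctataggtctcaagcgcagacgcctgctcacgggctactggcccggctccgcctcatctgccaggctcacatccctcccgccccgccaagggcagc
Sdr9c7: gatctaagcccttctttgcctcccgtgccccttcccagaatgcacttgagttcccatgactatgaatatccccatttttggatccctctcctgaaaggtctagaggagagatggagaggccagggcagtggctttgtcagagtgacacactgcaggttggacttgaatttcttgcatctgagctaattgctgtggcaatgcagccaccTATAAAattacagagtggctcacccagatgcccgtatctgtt
Sult2b1: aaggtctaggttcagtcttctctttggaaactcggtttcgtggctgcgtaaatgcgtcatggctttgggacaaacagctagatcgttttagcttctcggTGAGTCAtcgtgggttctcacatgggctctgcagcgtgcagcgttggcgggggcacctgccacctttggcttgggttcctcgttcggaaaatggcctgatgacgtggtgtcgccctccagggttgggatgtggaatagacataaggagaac
Cers3: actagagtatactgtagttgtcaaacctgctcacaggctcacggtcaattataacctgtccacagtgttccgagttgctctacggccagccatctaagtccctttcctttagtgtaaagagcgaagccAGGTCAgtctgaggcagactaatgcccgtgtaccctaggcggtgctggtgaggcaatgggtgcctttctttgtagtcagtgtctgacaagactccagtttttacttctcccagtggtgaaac

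**Figure D3:**
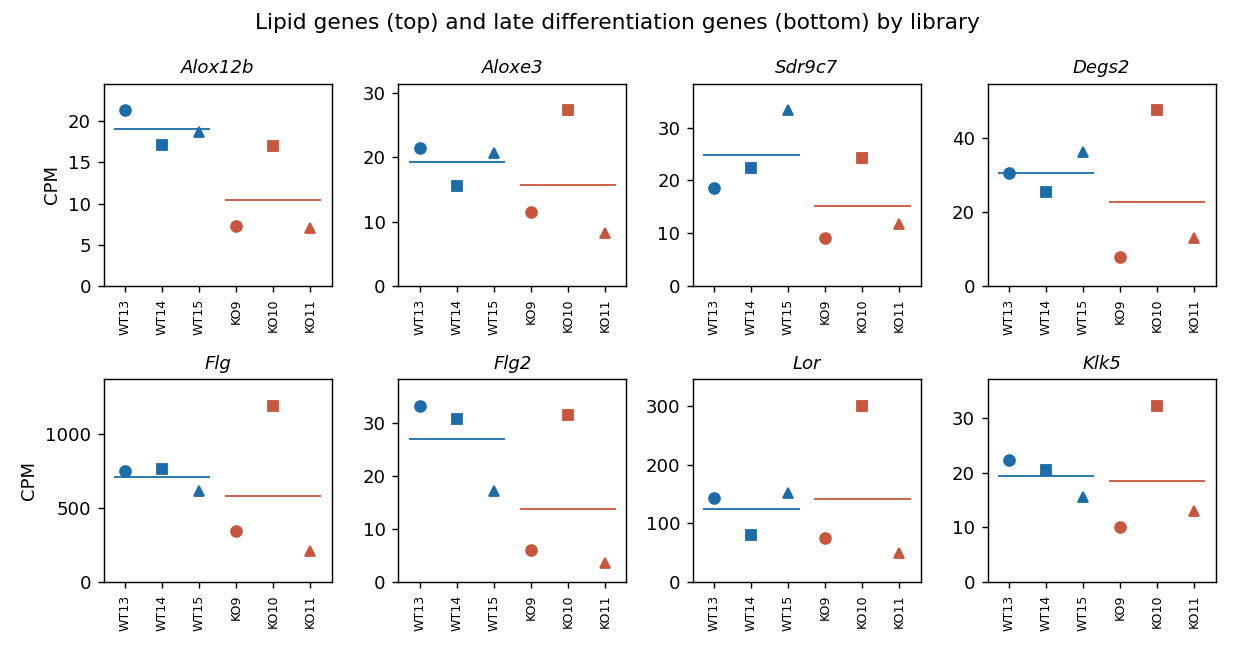
CPM in each library for 4 barrier lipid genes (top row) and 4 genes of late epidermal differentiation (bottom row), wild type in blue and p63 alphaKO in red, with a line at each group mean. In all 8 panels p63 alphaKO replicate 10 is the highest of its group, and replicates 9 and 11 lie below every wild type library. The 8 genes were chosen after their values were seen, so their likeness is no separate evidence. Other genes of the differentiation list, among them Ivl, Tgm3, Krt1 and Krt10, did not have this order.

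Degs2 had the widest spread among the p63 alphaKO libraries. It encodes the desaturase and hydroxylase that makes the phytosphingosine base of epidermal ceramides. Degs2 was at 30.48, 25.49 and 36.21 CPM in wild type against 7.76, 47.65 and 12.93 CPM in p63 alphaKO replicates 9, 10 and 11. Its highest p63 alphaKO library was 6.14 times its lowest, against 1.42 times in wild type. The log2 fold change was -0.80 (SE 0.46, 95% interval -1.77 to 0.18, limma adjusted p = 0.836), and it was -1.51 without p63 alphaKO replicate 10 (adjusted p = 0.287) and -0.27 without replicate 9 (adjusted p over the alternatives 0.287 to 0.999). This value therefore rests on which p63 alphaKO library is kept. It also rests on the fit, since with all 6 libraries it was -0.42 by edgeR and -0.44 by DESeq2.

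The same order of libraries was seen beyond the lipoxygenase branch. In 5 of the 31 members, Pnpla1, Degs2, Cers5, Aloxe3 and Sdr9c7, p63 alphaKO replicates 9 and 11 lay below every wild type library and replicate 10 did not, an order that 5.68% of all genes tested had and that was looked for after the values were seen. It held for 9 of 16 genes of spinous and cornified differentiation, among them Flg, Flg2, Lor, Hrnr and Klk5. Flg, the precursor of the filaggrin that bundles keratin in cornified cells, was at 752.8, 765.0 and 612.4 CPM in wild type against 344.3, 1191 and 205.1 CPM in p63 alphaKO. The 16 genes summed to 8470, 8731 and 8848 CPM in the wild type (replicates 13, 14 and 15) against 5661, 10395 and 6292 CPM in p63 alphaKO replicates 9, 10 and 11. Most of each sum came from Sbsn, Krtdap and Klk7, so it does not weigh the 16 genes alike. Of the 16 genes, 7 did not have the order described above. Among them Krt1, a spinous keratin, fell in p63 alphaKO (log2 fold change -2.44, limma adjusted p = 0.00686) and was lowest in replicate 10, as was its partner Krt10 at 14.16, 7.66 and 14.69 CPM. Replicates 9 and 11 of p63 alphaKO also had the fewest reads, 2188705 and 1699716, against 2999246 in replicate 10. Wild type libraries had 3146374 to 3215333 reads. How far depth or the level of differentiation of each culture moves the lipid genes was not tested.

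**Figure D4:**
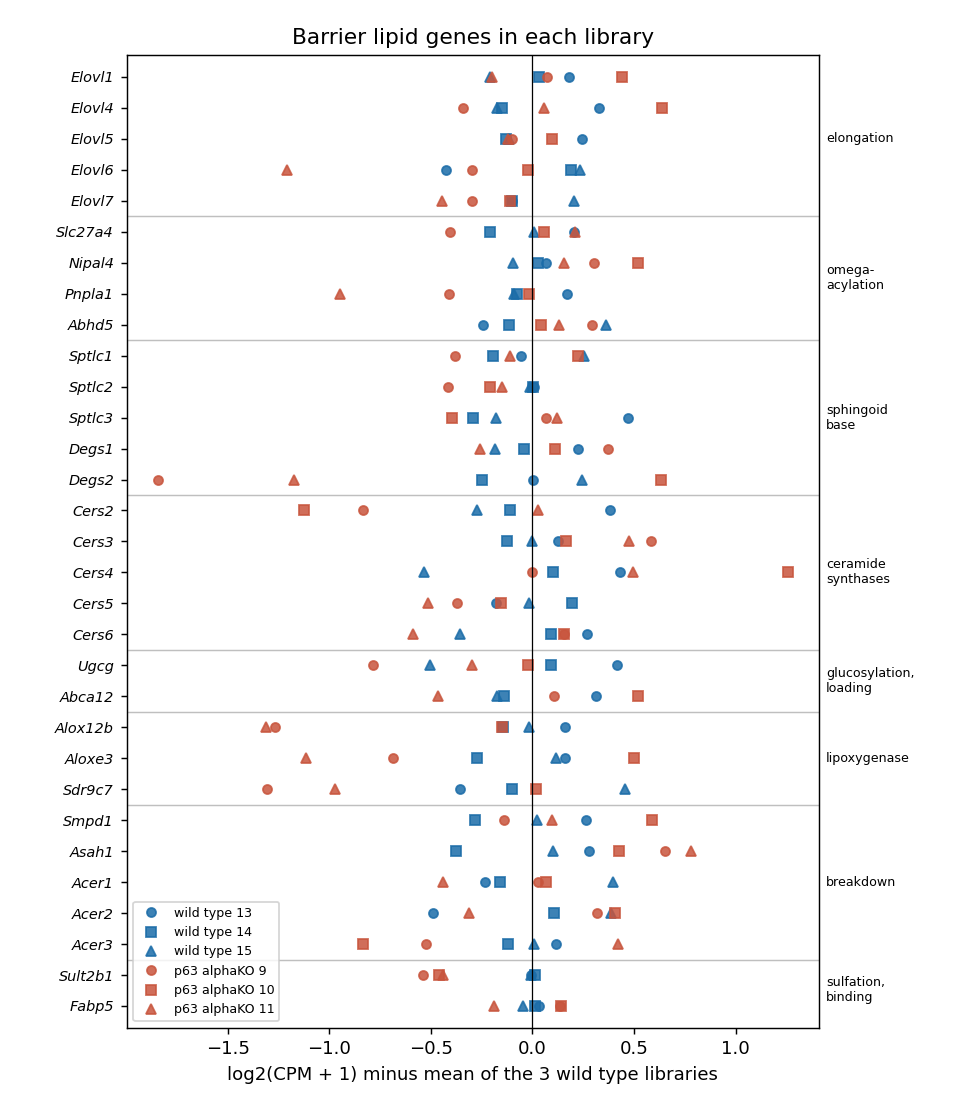
Level of the 31 tested genes in each library as log2(CPM + 1) minus the mean of the 3 wild type libraries, grouped by role, with wild type in blue and p63 alphaKO in red and 1 marker shape per replicate. The lowest point is Degs2 in p63 alphaKO replicate 9, and the 3 libraries of Sult2b1 in each group sit close together and apart from the other group.

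Across all 31 members, p63 alphaKO replicate 10 was the highest of the 3 p63 alphaKO libraries for 21 (67.7%), as it was for 33.7% of all genes tested. The median member stood 0.16, -0.11 and -0.01 from the wild type mean on the log2(CPM + 1) scale in wild type replicates 13, 14 and 15 and -0.30, 0.10 and -0.20 from it in p63 alphaKO replicates 9, 10 and 11. Replicate 10 thus lay within the wild type range and the other p63 alphaKO libraries below it. Of 30 members with a mean of at least 5 CPM, none differed more than 2-fold among wild type libraries and 7 (23.3%) did among p63 alphaKO libraries. Over all genes of that level the shares were 19.5% and 29.3%.

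Sult2b1 had the most even values of the members among the p63 alphaKO libraries, and in wild type it was second to Sptlc2. It encodes the sulfotransferase that makes cholesterol sulfate, a lipid that slows the shedding of cornified cells. Sult2b1 was at 63.78, 64.66 and 63.85 CPM in wild type against 43.84, 46.32 and 47.02 CPM in p63 alphaKO. The groups did not overlap. These values come from 203, 208 and 201 reads in wild type and 96, 139 and 80 reads in p63 alphaKO. Counting error at such read numbers is wider than the spread seen among the wild type libraries. That spread therefore cannot measure how sure the gap is, and the same holds for Sptlc2 in wild type (215, 217 and 210 reads). The means were 64.1 ± 0.489 and 45.7 ± 1.67 CPM (SD, n = 3 per group), 1.39-fold higher in wild type on the fitted scale (log2 fold change -0.48, SE 0.24, limma unadjusted p = 0.0628, adjusted p = 0.794). Limma shares the spread between genes of similar level, so its SE is larger than these libraries alone would give. The log2 fold change kept within -0.50 to -0.45 whichever library was left out. That range comes from the same even values, so it cannot measure how sure the gap is either. Fabp5, which encodes the epidermal fatty acid binding protein, was at 2422, 2392 and 2294 CPM in wild type against 2603, 2607 and 2078 CPM in p63 alphaKO (0.03, SE 0.22, 95% interval -0.43 to 0.49). The genome holds near-identical copies of Fabp5, so its value is uncertain where reads were split among them.

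Ceramide synthases, which join a fatty acid to the sphingoid base and differ in the chain they prefer, lay on both sides. Cers3 takes the ultra long chains of epidermal acylceramide, and its level was 82.01, 68.70 and 74.97 CPM in wild type against 112.8, 84.31 and 104.6 CPM in p63 alphaKO. All p63 alphaKO libraries were above all wild type libraries, with means of 75.2 ± 6.66 and 100.6 ± 14.7 CPM (log2 fold change 0.41, SE 0.23, 95% interval -0.09 to 0.90, limma adjusted p = 0.830). Cers2, which takes very long chains in most tissues, was at 23.57, 16.48 and 14.61 CPM in wild type against 9.59, 7.66 and 18.22 CPM in p63 alphaKO (-0.64, SE 0.37, adjusted p = 0.836). Here p63 alphaKO replicates 9 and 10 were below every wild type library and replicate 11 was among them. Without replicate 11 the value was -0.98 (limma adjusted p = 0.555), and it ranged from -0.98 to -0.40 when each library was left out in turn. Cers5, which favours palmitoyl chains, was at 31.42, 41.03 and 35.26 CPM and at 27.40, 31.99 and 24.69 CPM, so replicate 10 just reached the wild type range (-0.35). Cers6, of similar preference, was at 29.86 to 46.50 CPM in wild type against 25.27 to 42.99 CPM in p63 alphaKO (-0.09). Cers4 was the member closest above the limit of 1 CPM, with 14 reads in wild type and 21 in p63 alphaKO (0.58, SE 0.57, 95% interval -0.62 to 1.78). Its value rests on the fit, at 0.93 by edgeR and 0.95 by DESeq2.

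Ceramide breakdown genes included the highest fold change of the set by limma on log2(CPM + 1), though Cers4 was higher by edgeR and DESeq2. Asah1, the acid ceramidase of lysosomes, was at 19.17, 11.81 and 16.84 CPM in wild type against 25.12, 21.33 and 27.63 CPM in p63 alphaKO. Every p63 alphaKO library was above every wild type library, at 15.9 ± 3.76 and 24.7 ± 3.17 CPM on average (log2 fold change 0.62, SE 0.32, 95% interval -0.05 to 1.28, limma unadjusted p = 0.0661, adjusted p = 0.795). Acer3, an alkaline ceramidase, was at 52.47, 44.45 and 48.60 CPM in wild type against 33.34, 26.66 and 65.24 CPM in p63 alphaKO (-0.31, SE 0.31). As with Cers2, p63 alphaKO replicates 9 and 10 lay below wild type, and replicate 11 was above it. The value for Acer3 was -0.68 without replicate 11 and -0.05 without replicate 10. Acer1, the alkaline ceramidase of the differentiated epidermis, was at 27.96, 29.53 and 43.84 CPM and at 33.79, 34.66 and 24.10 CPM (-0.12), Acer2 at 9.74 to 18.74 and 11.17 to 18.99 CPM (0.14), and the acid sphingomyelinase Smpd1, which frees ceramide from sphingomyelin, at 21.45 to 31.73 and 23.75 to 39.99 CPM (0.18). The groups overlapped for all of the last 3.

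The synthesis of the sphingoid base starts with serine palmitoyltransferase, whose subunits are encoded by Sptlc1, Sptlc2 and Sptlc3. Sptlc2 was at 67.55, 67.46 and 66.71 CPM in wild type against 50.23, 57.98 and 60.54 CPM in p63 alphaKO, without overlap (67.2 ± 0.461 and 56.2 ± 5.37 CPM, log2 fold change -0.26, SE 0.24, limma adjusted p = 0.926). Its partner Sptlc1 overlapped between the groups, at 111.5, 101.3 and 138.5 CPM and 89.05, 135.6 and 107.6 CPM (-0.09). Sptlc3 was at 9.01 to 16.02 and 8.33 to 12.34 CPM (-0.07). Degs1, which desaturates dihydroceramide to ceramide in most cells, was at 284.7, 236.9 and 214.1 CPM in wild type against 315.1, 263.3 and 203.4 CPM in p63 alphaKO (0.07, 95% interval -0.41 to 0.56). Degs1 and Degs2 thus stood at 0.07 and -0.80 by limma, a difference between them that was not tested.

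Of the elongases, which lengthen fatty acids step by step, 5 were tested and none passed the threshold. Elovl4, which makes the ultra long chains of acylceramide, was at 299.1, 214.8 and 211.2 CPM in wild type against 188.1, 371.9 and 248.0 CPM in p63 alphaKO (a log2 fold change of 0.12, SE 0.26, 95% interval -0.43 to 0.66). Its lowest and highest libraries were both p63 alphaKO, replicates 9 and 10. Elovl1, which elongates saturated chains, was at 111.9, 101.0 and 85.13 CPM and 103.7, 134.3 and 85.81 CPM (0.10). Elovl7 was without overlap at 80.12, 80.20 and 99.42 CPM and 69.87, 79.65 and 62.89 CPM, by the gap between 80.12 and 79.65 CPM (-0.29, limma adjusted p = 0.913). Elovl6, which turns palmitic into stearic acid, was at 17.91, 27.98 and 28.91 CPM and 19.64, 23.99 and 9.99 CPM (-0.51, SE 0.36), lowest in p63 alphaKO replicate 11. Without that library it was -0.16. Elovl5, which elongates polyunsaturated chains, was at 28.60 to 37.39 and 28.80 to 33.66 CPM (-0.04). Elovl3 had 2 reads, both in wild type replicate 15, and was not tested.

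Of the genes that finish the acylceramide, Nipal4 was the 1 whose groups did not overlap. Nipal4 encodes ichthyin, a membrane protein whose loss causes ichthyosis, and was at 54.67, 53.16 and 48.60 CPM in wild type against 64.39, 74.98 and 58.19 CPM in p63 alphaKO, without overlap (52.1 ± 3.16 and 65.8 ± 8.49 CPM, log2 fold change 0.33, SE 0.24, limma adjusted p = 0.885). Pnpla1, the transacylase that adds the linoleic acid, was at 86.41, 72.74 and 72.11 CPM and 57.54, 75.98 and 39.38 CPM (-0.46, SE 0.27, adjusted p = 0.838). Replicates 9 and 11 of p63 alphaKO were again below wild type and replicate 10 was not. Abhd5, the lipase activator that works with Pnpla1, was at 83.26 to 127.4 and 102.0 to 121.5 CPM (0.16), and Slc27a4, which activates fatty acids with coenzyme A, at 47.25 to 63.15 and 41.10 to 63.48 CPM (-0.05). Cyp4f39, the mouse counterpart of the enzyme that hydroxylates the far end of the fatty acid, had 4 reads, all in wild type replicate 13, and was not tested.

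The 2 genes of glucosylation and loading overlapped between the groups. Ugcg, the glucosylceramide synthase, was at 65.35, 51.91 and 33.99 CPM in wild type against 27.86, 47.99 and 39.38 CPM in p63 alphaKO (a log2 fold change of -0.37, SE 0.30, 95% interval -1.01 to 0.27). Abca12, the transporter that fills lamellar granules and is mutated in harlequin ichthyosis, was at 125.7, 91.70 and 89.58 CPM and 108.7, 145.3 and 72.88 CPM (0.05, SE 0.27, 95% interval -0.52 to 0.62). The highest and the lowest library of Abca12 were both p63 alphaKO, replicates 10 and 11.

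Of 86 further symbols of the same pathways, 72 were tested and none passed the threshold with all 6 libraries (edgeR and DESeq2 also called none). Of these, 44 (61.1%) were lower and 28 higher, with a median of -0.08, where 49.3% of all genes tested were lower. An unadjusted p under 0.05 was found for 8 (11.1%), all lower, against 6.36% of all genes in either direction and 3.35% lower. The elongation cycle has a dehydratase step, for which the genes Hacd1 to Hacd4 were listed. Of these, Hacd2 was at 46.82, 76.16 and 53.36 CPM in wild type against 12.79, 17.00 and 42.91 CPM in p63 alphaKO (a log2 fold change of -1.40, SE 0.37, limma unadjusted p = 0.00147, adjusted p = 0.453). All p63 alphaKO libraries were below wild type, replicate 11 by the least. Without that replicate Hacd2 passed, at -1.89 (limma adjusted p = 0.0117). It did not pass with any other single library left out, and was at -1.06 without p63 alphaKO replicate 9 (limma adjusted p = 0.874). With all 6 libraries, Hacd1 (0.33, limma adjusted p = 0.913) and Hacd3 (0.205, adjusted p = 0.947) were higher in p63 alphaKO, with overlapping groups. Hacd4 was below the limit of 1 CPM and was not tested. Hsd17b12, a reductase of the cycle, was at 95.52, 95.43 and 126.1 CPM against 120.6, 134.6 and 162.8 CPM (0.40, adjusted p = 0.837). Plin3, of lipid droplets, was at 84.52, 62.48 and 100.7 CPM against 134.7, 91.31 and 133.4 CPM (0.54, adjusted p = 0.778). The groups overlapped for both.

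Among other sphingolipid genes, Sptssa, a small activating subunit of serine palmitoyltransferase, was at 77.61, 103.8 and 69.25 CPM and 40.19, 31.32 and 72.88 CPM (log2 fold change -0.85, SE 0.30, limma adjusted p = 0.716). Replicate 11 of p63 alphaKO was again within the wild type range, as for Cers2 above. Sgms1, a sphingomyelin synthase, was at 70.07, 89.22 and 75.60 CPM and 47.04, 58.65 and 47.61 CPM (-0.61, adjusted p = 0.755), and Col4a3bp, the ceramide transfer protein that supplies it, at 42.10, 32.95 and 28.91 CPM and 21.46, 21.66 and 22.34 CPM (-0.63, adjusted p = 0.767). Neither overlapped between the groups. In this list 5 of 24 tested genes (20.8%) did not overlap, 4 lower and 1 higher in p63 alphaKO. Over all 72 further genes tested the share was 12.5%, against 11.5% of all genes tested.

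The lists of cornified lipid and lamellar body genes and of lipid regulators had 15 and 7 tested genes. Ephx3 and Srebf1, 1 in each list, were lower in every p63 alphaKO library at levels above that of 3 reads, a separation that 5.09% of all genes tested had with no such limit on level. Ephx3, an epoxide hydrolase reported to act on products of the lipoxygenase branch, was at 18.85, 20.52 and 14.29 CPM and 12.33, 11.00 and 7.64 CPM (log2 fold change -0.75, SE 0.35, limma adjusted p = 0.774). Ephx2, a related hydrolase, had 14, 2 and 7 reads in wild type and none in p63 alphaKO (limma adjusted p = 0.758). Most of its reads came from wild type replicate 13, and the 2 reads of replicate 14 lie under the 3 that a count of 0 allows, so the groups cannot be called separate. Srebf1, the regulator of fatty acid synthesis genes, was at 30.48, 27.36 and 16.52 CPM and 11.42, 9.66 and 11.76 CPM (-1.07, SE 0.34, adjusted p = 0.646). Tgm1, which crosslinks the cornified envelope, was at 20.42, 27.98 and 21.28 CPM against 30.14, 9.33 and 7.64 CPM (-0.77, adjusted p = 0.811), highest and lowest in p63 alphaKO replicates 9 and 11. The receptor gene Nr1h2 was at 31.42, 32.64 and 29.22 CPM against 46.12, 38.66 and 31.15 CPM (0.29, adjusted p = 0.926). Rxrb, which encodes a partner of such receptors, was at 48.07, 23.00 and 32.08 CPM against 47.49, 38.32 and 36.44 CPM (0.29, adjusted p = 0.929). The groups overlapped for all 3.

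Some member genes share exon bases with another gene at the end that this assay reads. On the opposite strand, Elovl1 shares 53 bases with Cdc20 and Cers2 shares 75 bases with Setdb1, and whether strand was used in counting is not given in the sources used here. Cdc20 had 1164 reads in wild type and 460 in p63 alphaKO, and Setdb1 102 and 73 reads. The values of Elovl1 and Cers2 are uncertain to that extent.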

How the data were processed

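The authors deposited 1 table of CPM values for 6 libraries. Per the submitters' processing notes, STAR, HTSeq and the build mm10 were used, with no version or option given. The CPM unit was read from the values: each column sums to 999047 to 999508, and whole reads were recovered from 100% of the values, with a tolerance of 0.1 read. The test covered genes averaging 1 CPM or more and used limma 3.58.1 (R 4.3.3, eBayes with a mean-variance trend) on log2(CPM + 1), two-sided, with Benjamini-Hochberg adjustment over all 11716 genes. The added 1 CPM makes the fold changes of low genes smaller, but for Degs2 and Aloxe3 the edgeR and DESeq2 values were smaller still. edgeR 4.0.16 (quasi-likelihood) and DESeq2 1.42.0 were run on the recovered reads as alternatives, beside other pseudocounts (0.5 and 5), filters, TMM scaling, no trend and libraries left out.

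Members, marker lists, pathway lists and the exclusion of 2 libraries together were chosen with earlier results of these data known. Values in every library are given for members with an unadjusted p under 0.05, without overlap, or with a mean of at least 5 CPM (some as ranges), and from each pathway list for the 3 genes of smallest p (for Ephx2 as reads). Other genes named were chosen after their values were seen. The fit was tested on 5 simulated datasets drawn from the levels, spread and depth of these libraries, with 200 genes changed in each. The changed genes all had a mean of at least 5 CPM. The fit recovered 0.8% of 1.5-fold, 29.2% of 2-fold and 82.8% of 4-fold changes, with 33 false calls among 553. Only 5 genes were called in the real data, and the adjustment is looser where more genes change, so these rates may be too high here. Changes under 2-fold, as fitted for all 31 tested members, would thus seldom pass the threshold. Reads without molecular identifiers are not independent molecules, so limits on reads cover counting error only.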

Additional observations from a re-analysis of the deposited data

How the results depend on the processing

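No member passed the threshold in any of the 15 alternatives, and 0 to 5 members had an unadjusted p under 0.05 across them. Members lower numbered 16 to 23 of 31 when each library was left out in turn, and their median log2 fold change was -0.19 to -0.08. The number of genes called over the whole table moved: 2 with a pseudocount of 0.5, 3 with a pseudocount of 5, 1 with no filter, 2 with a minimum mean of 5 CPM, 0 with no mean-variance trend, 2 by edgeR, 15 by DESeq2, 2 to 12 when each library was left out, and 31 without both wild type replicate 15 and p63 alphaKO replicate 11. Other lipid pathway genes called were 0 to 1 when each library was left out (Hacd2, without p63 alphaKO replicate 11) and 2 without both libraries (Hacd2 and Sptssa). Direction held in every alternative for 18 members and turned in at least 1 for 13. Their log2 fold changes when each library was left out were Elovl1 -0.0652 to 0.25, Elovl4 -0.14 to 0.35, Elovl5 -0.11 to 0.0817, Slc27a4 -0.17 to 0.13, Sptlc1 -0.24 to 0.0564, Sptlc3 -0.22 to 0.17, Degs1 -0.0733 to 0.24, Cers6 -0.27 to 0.15, Abca12 -0.18 to 0.31, Smpd1 -0.0218 to 0.34, Acer1 -0.23 to 0.0814, Acer2 -0.11 to 0.36, Fabp5 -0.0263 to 0.14. Without both libraries Sptlc1 was at 0.0476 and Acer1 at 0.24. The cause of these turns was not tested. No paired analysis was possible because the groups share no replicate numbers. Depth limits Cers4, Cyp4f39, Elovl3 and Alox12e.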
